A study of Homo sapiens with 8 samples.

Results

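CEACAM1, CEACAM5, CEACAM6, MUC4, MUC20, MUC21 and TFF2 are 7 genes of the epithelial cell surface and of mucus, and they were followed here through mRNA sequencing of the human lung cancer line Calu-6, labelled as non-small cell lung cancer with a wild-type (WT) genotype. All 7 were found by symbol among the 14535 usable gene rows of the deposited table, and all 7 are among the 13213 genes that were tested. The cells had been given the vehicle DMSO or 1 µM KI696, an inhibitor of the KEAP1 protein that frees the transcription factor NRF2 from its repression, for 24 or 48 h, with 2 libraries in each of the 4 groups and no other allele or agent named in the labels. Within each group, A names the first column and B the second. The columns carry no replicate number, so an A in one group has no stated tie to an A in another. The 7 genes were chosen on their values in these same 8 libraries, CEACAM1 for a loss with KI696 and the others for differences between libraries. Their KI696 differences are therefore given below as descriptions without a test.

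CEACAMs are immunoglobulin-like adhesion proteins of the carcinoembryonic antigen family. CEACAM1 spans the membrane and can carry an inhibitory cytoplasmic tail that recruits tyrosine phosphatases, whereas CEACAM5 (the tumour marker CEA) and CEACAM6 are held at the surface by a glycosylphosphatidylinositol (GPI) anchor. MUC4, MUC20 and MUC21 are membrane mucins, large proteins coated with O-linked glycans that line the airway and other epithelia, and TFF2 is a small secreted trefoil peptide found with mucus, best known from the stomach.

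The CEACAM genes lie together on chromosome 19. In GENCODE 29 on GRCh38, CEACAM5 spans chr19:41708585-41729798 and CEACAM6 spans chr19:41750977-41772208, both on the plus strand and 21179 bases apart, while CEACAM1 spans chr19:42507304-42561234 on the minus strand. CEACAM1, CEACAM5 and CEACAM6 were all lower with KI696 at 24 h. At 48 h CEACAM5 and CEACAM6 split between libraries A and B, and CEACAM1 did not. The stretches around their RefSeq starts on GRCh38.p14 are shown as a description, each with 250 bases before and 50 bases after the start. They are chr19:42528432-42528731 (minus strand) for CEACAM1, chr19:41708376-41708675 (plus strand) for CEACAM5 and chr19:41755280-41755579 (plus strand) for CEACAM6. Capitals mark an E-box CACGTG or a GAAANNGAAA motif, the core of an interferon-responsive element.
CEACAM1: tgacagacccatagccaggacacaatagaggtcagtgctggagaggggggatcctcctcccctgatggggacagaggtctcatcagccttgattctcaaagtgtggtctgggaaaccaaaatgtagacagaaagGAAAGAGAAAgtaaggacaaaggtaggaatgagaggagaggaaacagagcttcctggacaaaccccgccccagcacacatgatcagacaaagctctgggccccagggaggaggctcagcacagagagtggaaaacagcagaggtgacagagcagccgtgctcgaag
CEACAM5: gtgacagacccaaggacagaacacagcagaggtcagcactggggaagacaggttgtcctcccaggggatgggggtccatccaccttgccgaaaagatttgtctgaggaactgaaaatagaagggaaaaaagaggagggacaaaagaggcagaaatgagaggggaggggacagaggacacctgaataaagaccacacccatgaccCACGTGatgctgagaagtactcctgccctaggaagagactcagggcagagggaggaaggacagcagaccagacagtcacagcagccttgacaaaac
CEACAM6: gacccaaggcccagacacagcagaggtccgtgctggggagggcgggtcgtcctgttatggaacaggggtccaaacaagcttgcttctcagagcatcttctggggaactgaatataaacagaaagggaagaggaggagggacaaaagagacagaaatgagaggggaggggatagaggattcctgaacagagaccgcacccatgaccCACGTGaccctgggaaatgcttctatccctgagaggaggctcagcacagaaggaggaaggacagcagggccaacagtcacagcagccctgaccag

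The stretches of CEACAM5 and CEACAM6 were 74.7% identical, and that of CEACAM1 was 65.6% identical to CEACAM5 and 68.2% identical to CEACAM6. Both strands were searched for 4 motifs. CACGTG was found at -46 in CEACAM5 and at -45 in CEACAM6 and was not found in the CEACAM1 stretch, and 7.26% of the 35116 RefSeq promoters of this length hold it. GAAANNGAAA was found in CEACAM1 at -116 and in neither of the others, against 3.57% of all promoters. The core of the antioxidant response element, TGACNNNGC, which NRF2 binds with small MAF proteins, was found in CEACAM1 at 27 bases after the start and in neither of the others, against 13.3% of all promoters. TGANTCA, the AP-1 element, was found in none of the 3, against 7.71% of all promoters. A match is a description of letters in a window and not evidence of a bound site. The RefSeq table held promoters for 4 of the 7 genes, and MUC4, the fourth, held none of the 4 motifs.

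The libraries held 6974235 to 14170211 recovered reads, and 3 reads corresponded to 0.213 to 0.428 CPM, the number of reads after scaling each library to a common size, a limit that covers counting error only. Separate cultures for A and B are not stated in the labels, so p-values measure the spread between these libraries, which may be technical. NQO1, a standard NRF2 target, was at 521 and 486 CPM in DMSO at 24 h, 1824 and 1852 in KI696 at 24 h, 320 and 244 in DMSO at 48 h, and 1939 and 2273 in KI696 at 48 h, so every treated library was above every vehicle library. Over all tested genes the median KI696 difference was -0.12 on the log2 scale at 24 h and -0.07 at 48 h. Calls use limma with an adjusted p under 0.05 over all 13213 genes. At 24 h, 37.2% of calls were increases, and at 48 h 45.8%, while after median-ratio scaling these shares were 51.8% and 52.0%, with median differences of -0.02 and -0.03.

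CEACAM1, which carries the inhibitory tail, was the gene of the 7 whose KI696 libraries of both times all lay below the DMSO libraries of both times. At 24 h it was at 10.8 and 10.5 CPM in DMSO (91 and 76 reads) and at 1.22 and 0.998 CPM in KI696 (10 and 7 reads). At 48 h it was at 34.7 and 36.0 CPM in DMSO (253 and 506 reads) and at 3.93 and 3.29 CPM in KI696 (28 and 34 reads). No treated library overlapped a vehicle library, and no group overlapped another, with the order DMSO 48 h, DMSO 24 h, KI696 48 h, KI696 24 h from high to low. The KI696 cells held 10.4% of the vehicle level at 24 h and 10.2% at 48 h, or fitted log2 differences of -3.02 (SE 0.20) and -3.21 (SE 0.20). The level nevertheless grew with culture time in both arms, by a CPM ratio of 3.32 in DMSO and 3.25 in KI696 from 24 to 48 h. The KI696 effect at 48 h minus that at 24 h was -0.20 (SE 0.28) on the log2 scale.

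Libraries A and B of CEACAM1 lay close together where other genes split. Library A was 0.05 log2 units below B in DMSO at 48 h and 0.24 above B in KI696 at 48 h. Across all tested genes, 3397 (25.7%) had all 4 KI696 libraries below all 4 DMSO libraries, and CEACAM1 was the 1 gene of the 7 among them. Since CEACAM1 was chosen for this loss, that count describes it and supports nothing further. About 2.26% of the 75-base windows of its longest matching transcript also occur in other transcripts, mainly CEACAM3 and LIPE-AS1, which runs antisense.

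**Figure D1:**
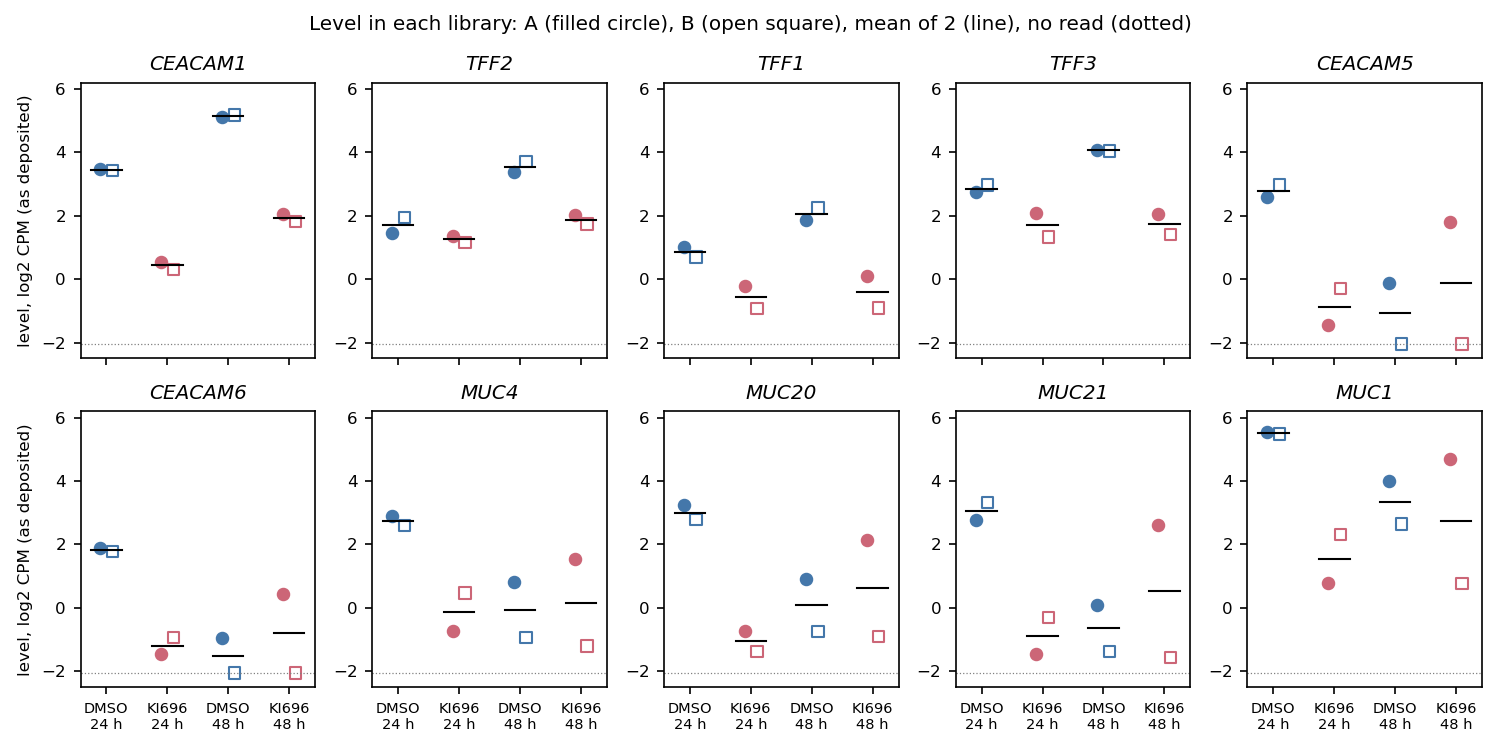
Level of the 7 chosen genes and of TFF1, TFF3 and MUC1 in each of the 8 libraries, in log2 CPM as deposited, by treatment and time (filled circles library A, open squares library B, bars the mean of the 2, dotted line the value of a gene with no read). The libraries of CEACAM1 and TFF2 lie close together in each group, those of TFF1 and TFF3 are further apart in KI696, and CEACAM5, CEACAM6, MUC4, MUC20, MUC21 and MUC1 are high in both DMSO 24 h libraries and in KI696 48 h library A.

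CEACAM5, the antigen measured clinically as CEA, was at 5.82 and 7.61 CPM in DMSO at 24 h and at 0.122 and 0.570 CPM in KI696 at 24 h (1 and 4 reads). At 48 h it was at 0.686 and 0 CPM in DMSO (5 and 0 reads) and at 3.22 and 0 CPM in KI696 (23 and 0 reads). It was thus high in the DMSO libraries of 24 h and in a single treated library of 48 h, and the groups overlapped at 48 h. CEACAM6, its close paralog and also GPI-anchored, was at 3.44 and 3.18 CPM in DMSO at 24 h and 0.122 and 0.285 CPM in KI696 at 24 h. At 48 h CEACAM6 was at 0.274 and 0 CPM in DMSO and 1.12 and 0 CPM in KI696. The same 3 libraries were high for both genes, and the groups of 48 h again overlapped. The fitted KI696 differences at 24 h were -3.66 (SE 0.98) for CEACAM5 and -3.02 (SE 0.77) for CEACAM6, and at 48 h 0.95 (SE 0.98) and 0.70 (SE 0.77). A gene with no read is held at 0.242 CPM by the count added before the logarithm, so these fitted differences depend on that count and are no bounds. Of the 75-base windows of CEACAM5, 17.8% also occur in other transcripts, nearly all in AC243967.1, and of those of CEACAM6 3.05%, so their reads are less certain than those of CEACAM1.

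MUC4, a membrane mucin that pairs with the receptor ERBB2, was at 7.24 and 5.81 CPM in DMSO at 24 h and 0.367 and 1.14 CPM in KI696 at 24 h. At 48 h it was at 1.51 and 0.284 CPM in DMSO and 2.66 and 0.194 CPM in KI696. Again the DMSO libraries of 24 h were highest, KI696 48 h library A came next, and both B libraries of 48 h were near the limit of 3 reads. MUC20, a membrane mucin reported to bind the receptor MET, was at 9.14 and 6.64 CPM in DMSO at 24 h and 0.367 and 0.143 CPM in KI696 at 24 h. At 48 h MUC20 was at 1.65 and 0.355 CPM in DMSO and 4.21 and 0.291 CPM in KI696. As for MUC4, the DMSO libraries of 24 h were highest and KI696 48 h library A came next, but the order of the low libraries differed. Treated and vehicle libraries overlapped at 48 h. Of the 75-base windows of MUC20, 64.3% also occur in MUC20-OT1 or MUC20P1, so its reads are uncertain. MUC4 and MUC20 are neighbours on chromosome 3, at chr3:195746765-195812277 (minus strand) and chr3:195720882-195741123 (plus strand), with 5642 bases between them.

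MUC21, a membrane mucin of squamous and airway epithelium at chr6:30983718-30989903, was at 6.65 and 9.83 CPM in DMSO at 24 h and 0.122 and 0.570 CPM in KI696 at 24 h. At 48 h it was at 0.823 and 0.142 CPM in DMSO and 5.89 and 0.0969 CPM in KI696, or 42 reads and 1 read in the treated libraries. The KI696 libraries of 48 h thus held both a level near that of the DMSO libraries of 24 h and a level near 0. The fitted KI696 differences at 24 h were -2.87 (SE 0.77) for MUC4, -4.05 (SE 0.79) for MUC20 and -3.94 (SE 0.99) for MUC21. At 48 h they were 0.23 (SE 0.77), 0.54 (SE 0.79) and 1.17 (SE 0.99).

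CEACAM5, CEACAM6, MUC4, MUC20 and MUC21 therefore shared a library pattern. Over these 5 genes, library A exceeded library B by 1.09 to 1.94 log2 units in DMSO at 48 h and by 2.50 to 4.18 log2 units in KI696 at 48 h. At 24 h the differences between A and B ran from -0.55 to 0.45 in DMSO and from -1.18 to 0.66 in KI696. Only 247 of the tested genes (1.87%) had A above B by 1 log2 unit or more in both 48 h groups, and these 5 were among them, as the pattern they were chosen for requires. CEACAM5, CEACAM6 and MUC21 reached 1 CPM in 3 libraries, both DMSO libraries of 24 h and KI696 48 h library A. They passed the filter on low values through those libraries alone, so some difference between groups was built in. Over the 8 libraries, Pearson's r between pairs of the 5 genes was 0.91 to 0.99, and r of each with CEACAM1 was 0.11 to 0.37, given without a test because the libraries fall into separate groups.

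**Figure D2:**
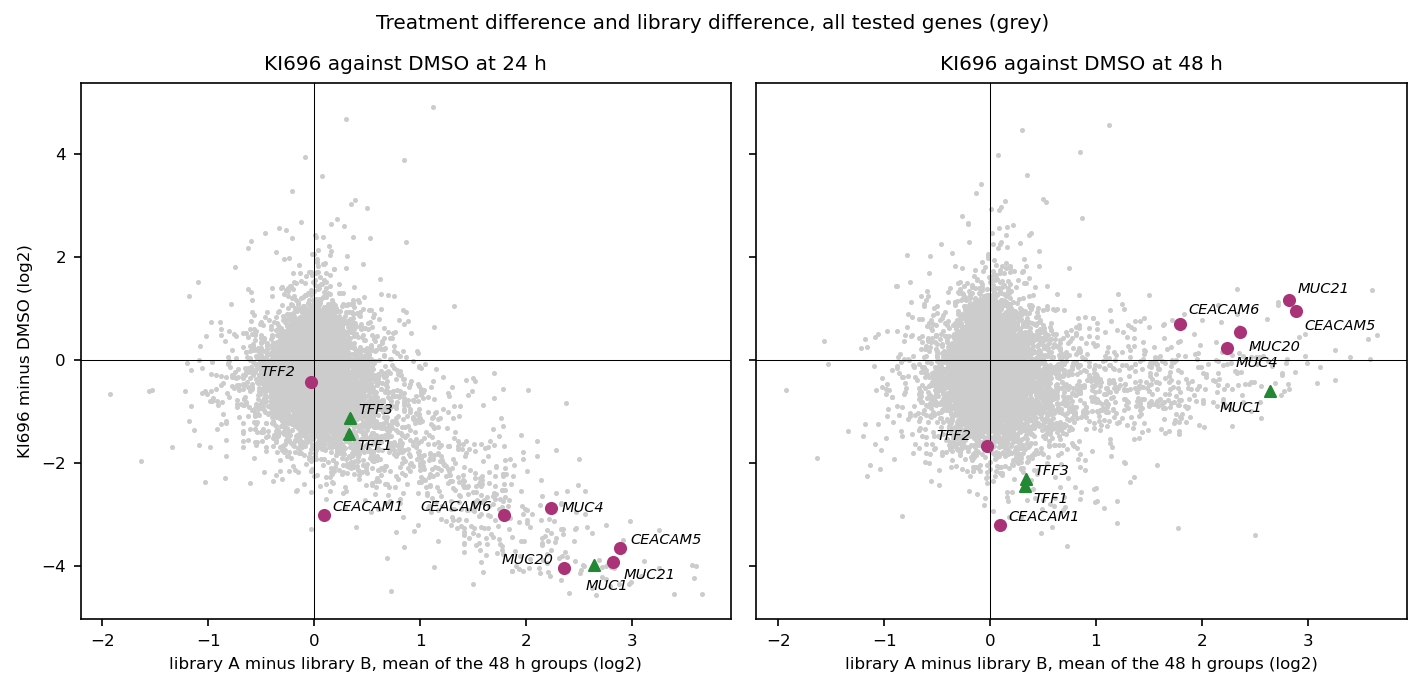
KI696 minus DMSO at 24 h (left) and 48 h (right) in log2 units against the mean excess of library A over library B in the 48 h groups, for all 13213 tested genes (grey), the 7 chosen genes (purple circles) and TFF1, TFF3 and MUC1 (green triangles). CEACAM1 and TFF2 lie near 0 on the library axis, and CEACAM5, CEACAM6, MUC4, MUC20 and MUC21 lie at the far right, low at 24 h and near or above 0 at 48 h.

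The lung lineage and epithelial marker lists moved with the library pattern. In both 48 h groups, 5 of 9 and 21 of 31 tested members were higher in A by 1 log2 unit or more. The share of all tested genes was 1.87%. The fibroblast and leukocyte lists held 0 of 5 and 0 of 3 such members, lists too short to tell from that share. Such genes were also the 1 tested endothelial marker, 6 of 27 enzymes of mucin-type O-glycans and 2 of 16 genes of the secretory cell programme. The lung lineage list, which includes NKX2-1, the transcription factor of alveolar and airway cells, had 9 tested members. Their mean level was 4.03 and 4.22 log2 CPM in DMSO at 24 h, 1.21 and 1.50 in KI696 at 24 h, 2.57 and 1.24 in DMSO at 48 h, and 3.53 and 0.85 in KI696 at 48 h. The summed level was taken over the 13 list members in the deposited table, tested or not. It was 265 and 275 CPM in DMSO at 24 h and 163 and 163 in KI696 at 24 h. At 48 h it was 263 and 199 in DMSO and 240 and 181 in KI696. LPCAT1 at 78.7 to 131 CPM and ABCA3 at 54.5 to 113 CPM were part of this sum. By mean level, the DMSO libraries of 24 h were highest and KI696 48 h library A came next, as in the 5 genes, while by summed level DMSO 48 h library A stood above KI696 48 h library A. Of all tested genes, 30.5% were called lower at 24 h and 26.4% at 48 h, and 18.1% and 22.4% were called higher. Of the lung lineage list, 8 of 9 were called lower at 24 h and 1 of 9 at 48 h. That 8 became 3 without KI696 24 h library A and 5 without DMSO 24 h library B or without KI696 24 h library B, and the 1 at 48 h became 4 without KI696 48 h library A. None of the 9 was called higher at 48 h, a count that became 5 without KI696 48 h library B. The surfactant gene SFTPB stayed at or below 0.549 CPM in all libraries. The surfactant genes SFTPA1 and SFTPA2 did not stay low, and ranged from 0 to 17.99 CPM and from 0 to 14.25 CPM. NKX2-1 itself was at 28.96 and 19.4 CPM in DMSO at 24 h, 0.857 and 2.14 in KI696 at 24 h, 12.1 and 2.49 in DMSO at 48 h, and 12.8 and 1.16 in KI696 at 48 h. In bulk RNA, fewer cells with these transcripts and less RNA per cell cannot be told apart.

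The epithelial list was called lower at 24 h in 31 of 31 tested members and at 48 h in 8 of 31. Of all tested genes, 30.5% were called lower at 24 h and 26.4% at 48 h. These shares also stand beside the fibroblast counts below. At 48 h, 22.4% of all tested genes were called higher. The 31 at 24 h became 25 with no variance trend and 11 with the lung lineage mean as a covariate. It became 7 with the epithelial mean, which is built from these same genes. The count also shrank when any 1 of the 24 h libraries was left out. The summed level of the epithelial list was 3609 and 2956 CPM in DMSO at 24 h and 1215 and 1271 in KI696 at 24 h. At 48 h it was 2857 and 2630 in DMSO and 1957 and 1382 in KI696. The count of 8 became 24 without KI696 48 h library A, and 5 without DMSO 48 h library A or without KI696 48 h library B, where 3 were called higher. KRT8, a keratin of simple epithelia, was called lower at both times, by 1.54 and 1.12 on the log2 scale (adjusted p 2.5e-07 and 2.03e-06). Leukocyte markers summed to between 29.1 and 48.3 CPM. Of the endothelial markers CDH5, VWF and TEK reached at most 0.415, 0.823 and 0.119 CPM, and KDR, which codes for a receptor of vascular growth factor, followed the library pattern with 9.26 and 6.23 CPM in DMSO at 24 h and 3.08 and 0.0969 in KI696 at 48 h. Fibroblast markers were called lower in 5 of 5 tested members at both times, COL1A1 by 1.80 and 1.29 on the log2 scale (adjusted p 3.33e-05 and 0.000379).

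The lung lineage mean was also held constant in the fit. Since r with that mean was 0.96 to 0.98 for the 5 genes and 0.30 for CEACAM1, the fitted values of the 5 had to shrink and that of CEACAM1 had to stay, so these values are a description and support nothing. With the mean as a covariate, the KI696 difference at 24 h was -2.86 (SE 0.34) for CEACAM1, against 0.39 (SE 0.73) for CEACAM5, -0.49 (SE 0.85) for CEACAM6, 0.16 (SE 0.67) for MUC4, -0.96 (SE 0.69) for MUC20 and 0.22 (SE 0.69) for MUC21. At 48 h it was -3.23 (SE 0.21) for CEACAM1 and lay between -0.08 and 0.75 for the other 5. The epithelial mean as covariate left CEACAM1 at -2.88 (SE 0.40) and -3.18 (SE 0.22). The covariate itself differs between treated and vehicle libraries at 24 h, so it takes up part of any treatment effect there, and whether the lung lineage level has a part in the differences of the 5 genes at 24 h was not tested apart from this. Without both A libraries of 48 h, an alternative chosen after seeing the data, the KI696 difference at 48 h was -3.36 (SE 0.33) for CEACAM1 and lay between -0.27 and 0 for the 5 genes, where few or no reads were left.

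**Figure D3:**
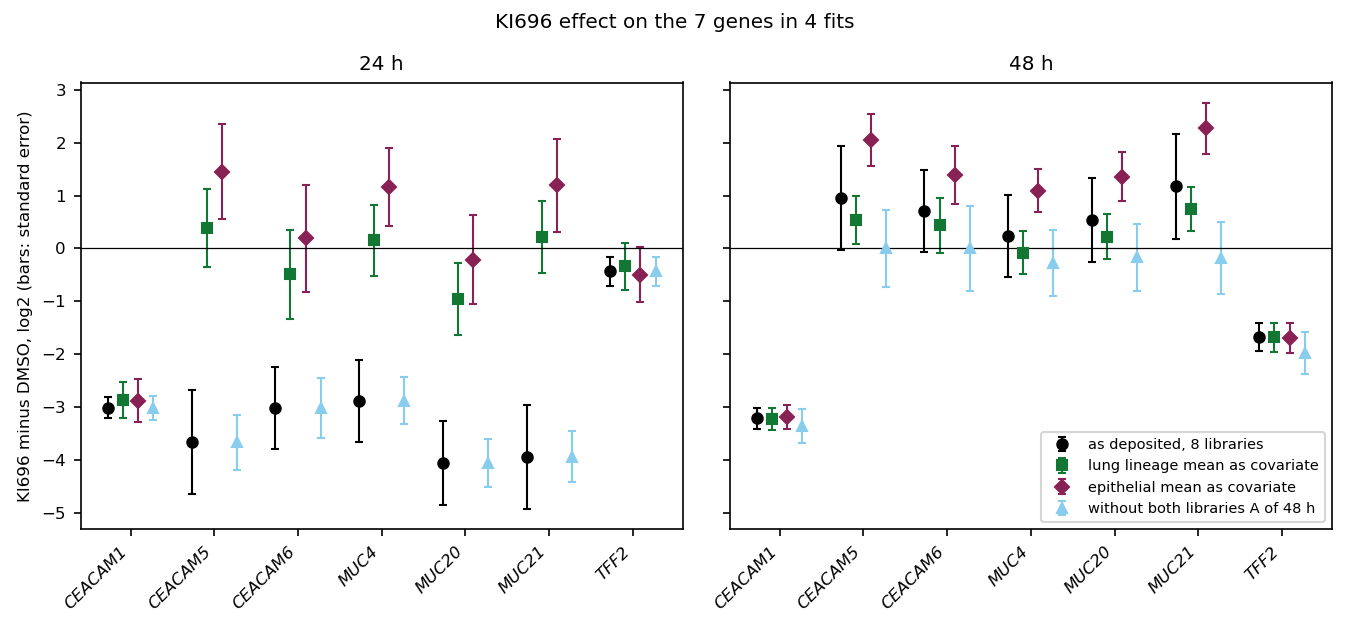
KI696 minus DMSO in log2 units for the 7 genes at 24 h (left) and 48 h (right) in 4 fits: all 8 libraries (black circles), the lung lineage mean as covariate (green squares), the epithelial mean as covariate (purple diamonds) and without both A libraries of 48 h (blue triangles), with standard errors as bars. CEACAM1 stays between -3.36 and -2.86, whereas CEACAM5, CEACAM6, MUC4, MUC20 and MUC21 lie between -4.05 and -2.87 at 24 h with all 8 libraries and between -0.96 and 1.45 with either covariate.

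TFF2, the trefoil peptide, did not show the library difference for which it had been grouped with the mucins. It was at 2.49 and 3.60 CPM in DMSO at 24 h (21 and 26 reads) and 2.33 and 2.00 CPM in KI696 at 24 h (19 and 14 reads). At 48 h it was at 10.2 and 12.9 CPM in DMSO (74 and 181 reads) and 3.79 and 3.10 CPM in KI696 (27 and 32 reads). The DMSO libraries of 48 h stood above all others, and the KI696 libraries of 48 h overlapped the DMSO libraries of 24 h. The fitted KI696 difference was -0.43 (SE 0.27) at 24 h and -1.67 (SE 0.27) at 48 h, where DMSO was 3.34 times KI696 in CPM. At 24 h the value moved to -0.68 without DMSO 24 h library A, to -0.19 without DMSO 24 h library B and to 0.20 after quantile scaling. Pearson's r of TFF2 over the 8 libraries was 0.86 with CEACAM1 and between -0.32 and -0.05 with the other 5 genes.

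The other trefoil genes, TFF1 and TFF3, lie beside TFF2 on chromosome 21, with gaps of 11154 and 30706 bases, and were not among the chosen genes, so they were tested. TFF3, the trefoil peptide of goblet cells, was at 6.41 and 7.61 CPM in DMSO at 24 h, 4.04 and 2.28 in KI696 at 24 h, 16.6 and 16.3 in DMSO at 48 h, and 3.93 and 2.42 in KI696 at 48 h. Every treated library was below every vehicle library. TFF3 fell by 1.14 on the log2 scale at 24 h (SE 0.28, limma adjusted p 0.00478) and by 2.32 at 48 h (SE 0.28, adjusted p 1.86e-05). TFF1, a trefoil peptide of mucous cells, was at 1.78 and 1.38 CPM in DMSO at 24 h, 0.612 and 0.285 in KI696 at 24 h, 3.43 and 4.48 in DMSO at 48 h, and 0.841 and 0.291 in KI696 at 48 h. It reached 1 CPM in the 4 DMSO libraries alone and passed the filter on low values through them. Part of its loss with KI696 was therefore built in. TFF1 fell by 1.43 at 24 h (SE 0.48, adjusted p 0.0249) and by 2.45 at 48 h (SE 0.48, adjusted p 0.000903). At 48 h both calls held in every alternative that could be fitted. At 24 h the TFF3 call was lost without KI696 24 h library B (adjusted p 0.0718), and that of TFF1 without that library (0.154) and without DMSO 24 h library A (0.139) or B (0.0683). Both calls at 24 h were also lost with quantile scaling and with either covariate, where the values were as small as -0.63 for TFF3 (adjusted p up to 0.331) and -0.49 for TFF1 (adjusted p up to 0.548). The difference between the effects at 48 and 24 h did not pass for TFF1 (-1.02, adjusted p 0.513) or TFF3 (-1.19, adjusted p 0.159).

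Among the other family members in the table, 8 were tested and 8 fell below the filter, namely PSG3, PSG4, PSG5, PSG9, MUC12, MUC15, MUC5B and OVGP1. At 24 h, 30.5% of all tested genes were called lower and 18.1% higher. Of the 7 chosen genes 6 were called lower, all but TFF2, a count from which nothing is read because the contrast chose them, and none was called higher. Of the 8 other tested members 7 were called lower and none higher. CEACAM19, MUC16 and TFF1 passed the filter on low values through DMSO libraries alone, so part of their fall was built in. At 48 h, 26.4% of all tested genes were called lower and 22.4% higher. CD164, PODXL, TFF1 and TFF3 were among those lower, and none of the 8 other members was higher. CEACAM1 and TFF2 were also lower and none of the 7 chosen genes was higher, counts from which again nothing is read. Both calls together, lower at 24 h and at 48 h, held for 19.9% of all tested genes. Among the 8 other members they held for CD164, PODXL, TFF1 and TFF3. CEACAM1, chosen for this loss, also had both.

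MUC1, the main membrane mucin of airway and glandular epithelium, followed the library pattern. It was at 46.9 and 44.6 CPM in DMSO at 24 h, 1.47 and 4.70 in KI696 at 24 h, 15.8 and 6.04 in DMSO at 48 h, and 25.7 and 1.45 in KI696 at 48 h. The treated libraries of 48 h lay on either side of the vehicle libraries. MUC1 fell by 3.98 on the log2 scale at 24 h (SE 0.88, adjusted p 0.00237), a call lost without KI696 24 h library A (adjusted p 0.0572) and with either covariate. At 48 h the difference was -0.60 (SE 0.88, adjusted p 0.603), and 1 library decided it: it was -2.57 (adjusted p 0.000552) without KI696 48 h library A and 1.37 (adjusted p 0.0386) without KI696 48 h library B.

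PODXL, a mucin-like protein of podocytes and vessels that is also made by many carcinomas, was at 289 and 298 CPM in DMSO at 24 h, 215 and 206 in KI696 at 24 h, 373 and 465 in DMSO at 48 h, and 166 and 174 in KI696 at 48 h. All treated libraries were below all vehicle libraries. PODXL fell by 0.48 at 24 h (SE 0.08, adjusted p 0.000415) and by 1.29 at 48 h (SE 0.08, adjusted p 1.2e-07), and both calls held in all 19 alternatives. Its effect at 48 h minus that at 24 h was -0.81 (SE 0.12, adjusted p 0.00975). That call held in 11 of 18 alternatives, with values from -0.97 to -0.59. The losses included the fit with no variance trend and those without any 1 of the 24 h libraries. Only 0.848% of all tested genes were called for this difference in either direction, and none of the 7 chosen genes was.

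CD164, a sialomucin of many cell types, was at 239 to 298 CPM in all libraries and fell by 0.15 at 24 h (adjusted p 0.0321) and by 0.28 at 48 h (adjusted p 0.000806). The call at 24 h was lost after median-ratio scaling (adjusted p 0.467) and without any 1 of the 24 h libraries (adjusted p 0.0689 to 0.189), with no variance trend and with either covariate (adjusted p up to 0.653), and that at 48 h held in all alternatives. CEACAM19, a distant CEACAM relative, was at 1.66 and 1.80 CPM in DMSO at 24 h and 0.490 and 0.285 in KI696 at 24 h, and at 0.549 to 0.701 CPM in all 48 h libraries. It passed the filter on low values through the DMSO libraries of 24 h alone, so part of its fall at 24 h was built in. CEACAM19 fell by 1.67 at 24 h (adjusted p 0.0137), a call lost without DMSO 24 h library A or B or without KI696 24 h library B (adjusted p 0.0737 to 0.0898), with quantile scaling and with either covariate (adjusted p up to 0.247), and differed by 0.08 at 48 h (adjusted p 0.911). MUC16, the mucin that carries the CA125 antigen, was between 0 and 3.02 CPM, and its difference of -2.06 at 24 h (adjusted p 0.0263) was lost without any 1 of the 24 h libraries (adjusted p 0.0583 to 0.145). The MUC16 call held in 9 of 18 alternatives, and it was also lost with quantile scaling, log2 of CPM plus 1, no variance trend and either covariate (down to -0.51, adjusted p up to 0.792). MUC16 reached 1 CPM in 2 libraries, both DMSO, so part of its fall was built in as well. MCAM, an adhesion protein of vessels and melanoma, differed by -0.23 and -0.24 at the respective times, with adjusted p of 0.48 and 0.468.

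**Figure D4:**
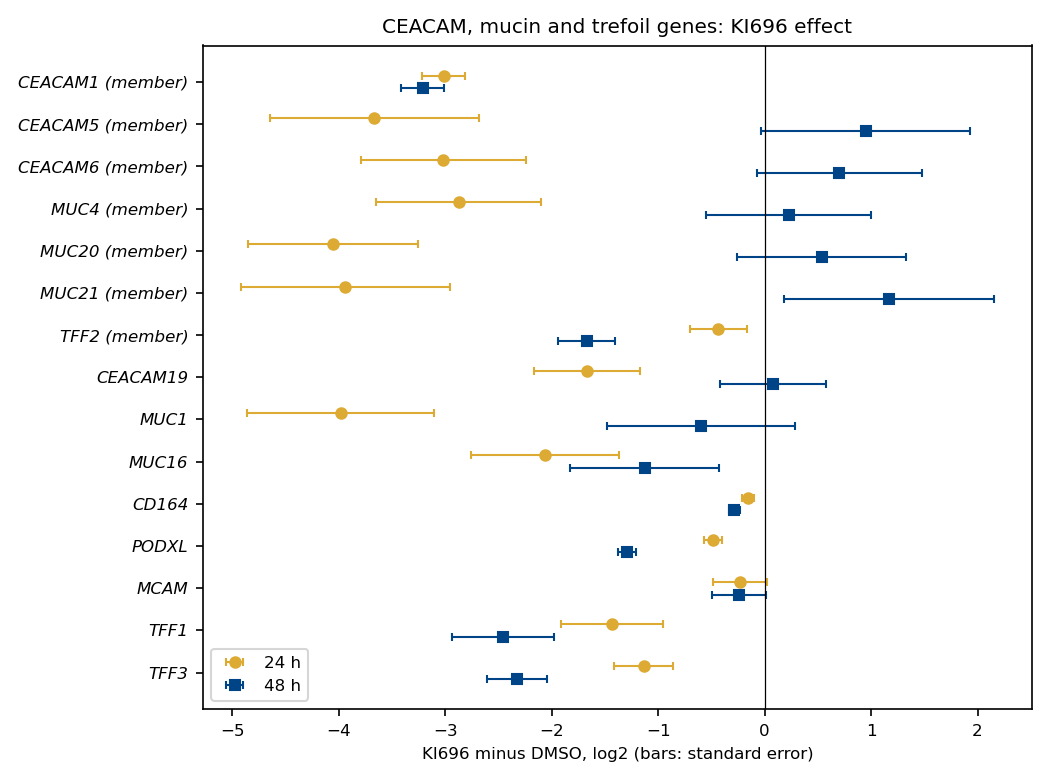
KI696 minus DMSO in log2 units for the 7 chosen genes (marked member) and the 8 other tested CEACAM, mucin and trefoil genes, at 24 h (yellow circles) and 48 h (blue squares), with standard errors as bars. CEACAM1, PODXL, TFF1, TFF2 and TFF3 are below 0 at both times, whereas CEACAM5, CEACAM6, MUC4, MUC20 and MUC21 are between -4.05 and -2.87 at 24 h and between 0.23 and 1.17 at 48 h.

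The vehicle cultures also changed between 24 and 48 h, a contrast in which KI696 plays no part. The 7 genes were chosen on all 8 libraries, so their values in this contrast are a description without a test. CEACAM1 differed by 1.71 on the log2 scale (SE 0.20) and TFF2 by 1.85 (SE 0.27), with both libraries of 48 h above both of 24 h. Over all tested genes, 5.29% were called higher and 4.35% lower. PODXL rose by 0.50 (SE 0.08, adjusted p 0.00253), a call that held in 18 of 19 alternatives. TFF3 rose by 1.21 (adjusted p 0.0173), a call lost when any DMSO library was left out (adjusted p up to 0.153), and TFF1 differed by 1.20 (adjusted p 0.138). The remaining 5 genes differed by -3.86 for CEACAM5, -3.33 for CEACAM6, -2.81 for MUC4, -2.92 for MUC20 and -3.70 for MUC21. CEACAM5, CEACAM6 and MUC21 passed the filter on low values only through the DMSO libraries of 24 h and KI696 48 h library A. Part of their difference was therefore built in, and no call is read for any of the 5. With 1 library left out, the differences ran from -4.83 to -2.89 for CEACAM5 and from -3.88 to -2.78 for CEACAM6. They ran from -3.68 to -1.94 for MUC4, -3.75 to -2.09 for MUC20 and -4.44 to -2.97 for MUC21. Over all alternatives the weakest were -0.61 for CEACAM5, -1.30 for CEACAM6, -0.38 for MUC4, -0.43 for MUC20 and -0.37 for MUC21.

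Genes that act with CEACAMs, mucins and trefoil peptides were taken from lists, leaving out the 7. Of 16 tested genes of the secretory cell programme, 13 were called lower and 0 higher with KI696 at 24 h. At 48 h, 2 were called lower and 0 higher, and the median differences at the respective times were -1.06 and -0.08. The shares of all tested genes were 30.5% lower and 18.1% higher at 24 h, and 26.4% and 22.4% at 48 h. The 13 became 4 with the lung lineage covariate, and the 2 became 6 without KI696 48 h library A. Without KI696 48 h library B, 3 were called higher at 48 h. AGR2, a disulfide isomerase that folds mucins in the endoplasmic reticulum, was at 26.8 and 27.7 CPM in DMSO at 24 h, 3.43 and 3.71 in KI696 at 24 h, 37.9 and 35.8 in DMSO at 48 h, and 14.2 and 9.98 in KI696 at 48 h. AGR2 showed no wide split between libraries, and fell by 2.85 at 24 h and by 1.61 at 48 h (adjusted p 7.12e-08 and 4.16e-06), calls that held in all alternatives. CREB3L1, a transcription factor of secretory load, fell by 1.16 and 0.81 (adjusted p 0.000404 and 0.00428), the second call being lost without DMSO 48 h library A. EHF, an epithelial ETS factor, fell by 3.78 at 24 h (adjusted p 0.000904) and differed by -0.78 at 48 h (adjusted p 0.4), and S100P, a calcium-binding protein, fell by 1.24 at 24 h (adjusted p 0.000882) and differed by 0.31 at 48 h (adjusted p 0.309). With either covariate the calls of EHF and S100P at 24 h were lost, with values as small as -0.41 for EHF (adjusted p up to 0.773) and -0.24 for S100P (adjusted p up to 0.637), and that of CREB3L1 was lost with the epithelial covariate.

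The enzymes that build mucin-type O-glycans had 27 tested members, of which 18 were called lower and 2 higher at 24 h. At 48 h, 8 were called lower and 1 higher. Of all tested genes, 30.5% were lower and 18.1% higher at 24 h, and 26.4% and 22.4% at 48 h. The 18 became 4 with the lung lineage covariate, and the 8 became 5 without DMSO 48 h library A or without KI696 48 h library B. The 1 higher at 48 h became 4 without KI696 48 h library B. B3GNT3, which extends core O-glycans, fell by 3.53 at 24 h (adjusted p 4.78e-05), and GALNT5, which starts them, by 3.59 (adjusted p 0.000499), while at 48 h they differed by -0.38 and -0.81 (adjusted p 0.52 and 0.32). GALNT7, a transferase of the same step, fell by 0.45 and 0.51 (adjusted p 0.000221 and 7.09e-05). ST3GAL1, which caps core glycans with sialic acid, rose by 0.69 at 24 h (adjusted p 0.000364) and differed by 0.03 at 48 h (adjusted p 0.831). With the epithelial covariate the 24 h calls of these 4 enzymes were lost, and that of GALNT5 also with the lung lineage covariate. The pathway that makes the GPI anchor of CEACAM5 and CEACAM6 had 28 tested members. At 24 h, 4 were called higher and 4 lower, both below the shares of all tested genes. At 48 h, 2 were called higher and 8 lower, the latter near the share of all tested genes. The 4 higher became 2 without DMSO 24 h library A or without KI696 24 h library A, 7 after median-ratio or quantile scaling and 1 with either covariate, and the 4 lower became 2 after quantile scaling or with the lung lineage covariate. The 2 higher at 48 h became 1 without DMSO 48 h library B and 4 after quantile scaling. PIGQ, of the first step of anchor synthesis, fell by 0.77 and 0.67 (adjusted p 9.2e-05 and 0.000221), PGAP3, which remodels the anchor, fell by 0.88 and 0.97 (adjusted p 0.00175 and 0.000798), and PIGX, a subunit of a mannosyltransferase, fell by 0.47 and 0.44 (adjusted p 0.00178 and 0.00235). DPM1, which makes the mannose donor, rose by 0.38 and 0.52 (adjusted p 0.00051 and 3.56e-05). The 24 h calls of PGAP3 and PIGX were lost with either covariate.

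Signalling partners and receptors of these proteins had 14 tested members, of which 6 were called lower and 2 higher at 24 h, and 5 lower and 3 higher at 48 h. Over all tested genes the shares were 30.5% lower and 18.1% higher at 24 h, and 26.4% and 22.4% at 48 h, so these counts were near the background. The 5 became 3 without DMSO 48 h library B, the 2 became 1 without DMSO 24 h library A or without KI696 24 h library B, and the 3 became 5 without KI696 48 h library B. LGALS3, the lectin galectin-3 that binds mucin glycans, was at 161 and 155 CPM in DMSO at 24 h, 72.1 and 75.4 in KI696 at 24 h, 155 and 165 in DMSO at 48 h, and 86.4 and 59.1 in KI696 at 48 h. It fell by 1.09 and 1.16 (adjusted p 1.59e-05 and 7.02e-06). PTPN6, the phosphatase SHP-1 that binds the tail of CEACAM1, fell by 1.35 and 0.51 (adjusted p 2.98e-05 and 0.0213), the second call being lost without DMSO 48 h library B or without KI696 48 h library B. ERBB2, the receptor that pairs with MUC4, fell by 1.31 at 24 h (adjusted p 1.88e-05) and differed by -0.28 at 48 h (adjusted p 0.149). MET, the receptor bound by MUC20, fell by 0.75 at 24 h (adjusted p 3.15e-05) and differed by 0.17 at 48 h (adjusted p 0.158). The 24 h call of MET was lost with the epithelial covariate.

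Of 6 tested ligands of the EGF family, 4 were called lower at each time and 1 was called higher at 48 h. Of all tested genes, 30.5% and 26.4% were called lower at 24 and 48 h, and 22.4% were called higher at 48 h. The 4 at 24 h became 2 without DMSO 24 h library A or without KI696 24 h library A, and the 4 at 48 h became 2 without DMSO 48 h library B. EREG, which codes for epiregulin, fell by 1.28 and 1.38 (adjusted p 6.64e-06 and 2.5e-06), and TGFA fell by 0.93 and 0.95 (adjusted p 3.76e-05 and 2.46e-05). These 2 kept their calls in all alternatives. AREG, which codes for amphiregulin, fell by 1.76 and 1.48 (adjusted p 0.0149 and 0.0345), and BTC, which codes for betacellulin, fell by 2.27 at 24 h (adjusted p 0.00682), and both of these calls at 24 h were lost without DMSO 24 h library A or without KI696 24 h library A, and with either covariate. The AREG call at 48 h held in 10 of 18 alternatives and was lost without any 1 of the DMSO libraries or without KI696 48 h library A. BTC reached 1 CPM only in the DMSO libraries of 24 h, and AREG only in DMSO libraries. Both passed the filter on low values through those libraries, so part of their falls was built in.

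**Figure D5:**
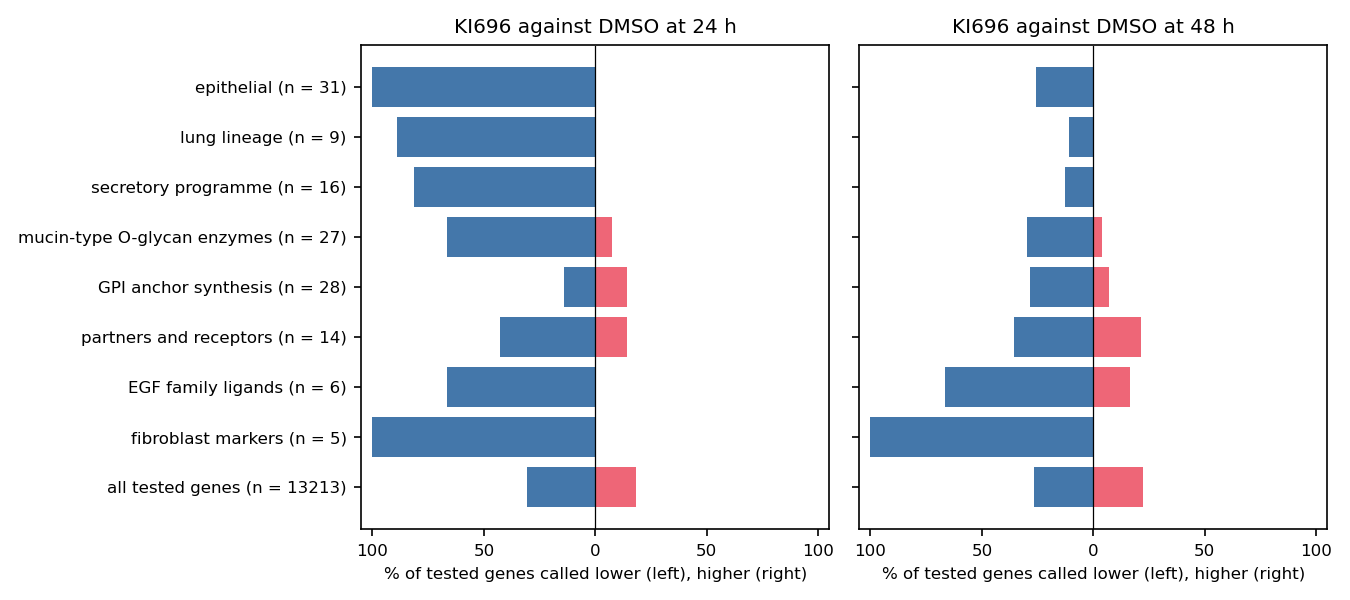
Percent of the tested genes of each list called lower (left, blue) or higher (right, red) with KI696 at 24 h and at 48 h by limma at an adjusted p under 0.05, with all 13213 tested genes at the bottom and the 7 chosen genes left out of the lists. The epithelial list goes from 31 of 31 lower at 24 h to 8 of 31 at 48 h, whereas the fibroblast list and the EGF family ligands have the same number lower at both times.

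Within 200 kb of the 7 genes lay 25 other tested genes with a GENCODE position. At 24 h, 13 of them were called lower and 0 higher, and at 48 h 9 lower and 1 higher. The shares of all tested genes were 30.5% lower and 18.1% higher at 24 h, and 26.4% and 22.4% at 48 h. TFF1 and TFF3, described above, are among the 25. CXCL17, a chemokine gene of mucosal epithelium 64256 bases from CEACAM1, did not share the pattern of CEACAM1. It was at 2.49 and 10.1 CPM in DMSO at 24 h, 0.490 and 0.570 in KI696 at 24 h, 0.412 and 0.142 in DMSO at 48 h, and 3.36 and 0 in KI696 at 48 h. Like the 5 genes it was high in DMSO at 24 h and in KI696 48 h library A. LIPE, a lipase gene 79878 bases from CEACAM1, fell by 0.42 at 24 h and 0.68 at 48 h (adjusted p 0.0103 and 0.000339). C6orf15, 121320 bases from MUC21, was at 5.70 and 2.77 CPM in DMSO at 24 h, 0.122 and 0.285 in KI696 at 24 h, 0.412 and 0 in DMSO at 48 h, and 0.981 and 0.0969 in KI696 at 48 h. DDR1, a collagen receptor gene 83562 bases from MUC21, fell by 1.34 and 1.36 (adjusted p 4.45e-07 and 2.51e-07). ABCG1, a cholesterol exporter gene 49113 bases from TFF2, fell by 1.59 and 2.35 (adjusted p 0.000433 and 1.48e-05), and SLC37A1, 144880 bases from TFF2, fell by 2.03 and 1.08 (adjusted p 7.43e-05 and 0.00631). These 6 neighbours were picked after their values were seen.

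Among 10669 tested genes with a mean of at least 5 CPM, those most like CEACAM1 over the 8 libraries were C8orf4, CYBRD1 and CLIP2, with Pearson's r of 0.998, 0.997 and 0.996. CYBRD1, a ferric reductase gene, was at 122 and 116 CPM in DMSO at 24 h, 43.1 and 36.5 in KI696 at 24 h, 234 and 257 in DMSO at 48 h, and 74.7 and 60.7 in KI696 at 48 h, which is the order of groups seen for CEACAM1. Those most like the mean of the other 6 genes were NAPSA, STEAP4 and CRABP2, with r of 0.995, 0.990 and 0.990. NAPSA, an aspartic protease gene of alveolar cells, was at 18.5 and 21.9 CPM in DMSO at 24 h, 0.367 and 0.998 in KI696 at 24 h, 3.70 and 0.498 in DMSO at 48 h, and 12.8 and 0.194 in KI696 at 48 h. It was high in the same 3 libraries as CEACAM5 and MUC21. The correlations share libraries and are descriptions over 8 points in 4 groups.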

How the data were processed

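Poly(A) RNA of 8 Calu-6 libraries was read as single reads of 75 bases, per the labels' protocols. The submitters' processing notes name the hg38 build, R 4.0.3 and edgeR. The aligner, counting tool and strand setting were not given in the sources used here. Values on the log2 scale were deposited by the authors, taken here as log2 CPM with a small added count, since on the linear scale they step in whole reads (largest distance to a whole number 2.39e-09 reads) above a floor of -2.05. CPM in the text has that added count removed. Of 14556 rows, 21 had symbols turned into dates and were left out.

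A gene was tested if it reached 1 CPM in 2 or more of the 8 libraries. The test was limma 3.58.1 (R 4.3.3), applied to the log2 values as the authors deposited them, with group means, a trended variance and 4 residual degrees of freedom. It was two-sided, and p-values were adjusted by Benjamini-Hochberg over the 13213 genes, with 0.05 as the threshold. The fit was tested on simulated data. The plan allowed for linear values with log2 of the value plus 1, and because the table was already on the log2 scale, that became an alternative. The recovered reads allow a count test, which was run as voom in limma.

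The members and lists were chosen with earlier results of these data known. Beyond the 7 genes, the text names up to 4 genes per list by the smallest p at 24 h, every tested relative, and the 3 genes most like CEACAM1 and most like the mean of the other 6. A few genes under this rule are not named. Positions come from GENCODE 29, and promoters from RefSeq on GRCh38.p14. Shared windows are 75-base stretches found in another gene's transcript.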

Additional observations from a re-analysis of the deposited data

Results flagged for a closer look

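The KI696 effect on PODXL differed between the times: the effect at 48 h minus that at 24 h was -0.81 on the log2 scale (SE 0.12, limma adjusted p 0.00975), with treated libraries below vehicle libraries in 2 of 2 at each time. The call held in 11 of 18 alternatives. It was lost, among others, with no variance trend and when any 1 of the 24 h libraries was left out. Both arms changed with time: the CPM ratio of 48 h to 24 h for PODXL was 1.43 in DMSO and 0.81 in KI696. The rise in DMSO was 0.50 on the log2 scale (SE 0.08, limma adjusted p 0.00253).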

How the results depend on the processing

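No paired analysis was possible because the column headers carry no replicate number. The call counts depended on the setting. For KI696 at 24 h, 6422 calls became 3373 with the lung lineage covariate and 2728 with the epithelial covariate. For the difference between the effects, 112 became 5 with no filter, 0 with no variance trend (limma, 1681 at an unadjusted p under 0.05), 66 with the lung lineage covariate, 838 without both A libraries of 48 h, and 1 to 530 with 1 library left out. For DMSO 48 h against 24 h, 1274 became 153 with no variance trend, 803 with the lung lineage covariate, 2205 without both A libraries of 48 h, and 316 to 1646 with 1 library left out. At 48 h, 6445 became 5291 to 6166 with 1 library left out. The direction at 24 h reversed with the lung lineage covariate for CEACAM5 (0.39), MUC4 (0.16) and MUC21 (0.22), and with the epithelial covariate for CEACAM5 (1.45), CEACAM6 (0.19), MUC4 (1.16), MUC21 (1.19) and MUC1 (1.02). At 48 h MUC1 ranged from -2.57 to 1.37 with 1 library left out. The cause was not tested. CEACAM1 kept its direction in every alternative, from -3.19 to -2.47 at 24 h and from -3.36 to -2.98 at 48 h. With 1 library left out of a group, the remaining one is assumed to vary like the other groups. Depth limits the 5 library-split genes, which had 0 to 12 reads in the KI696 24 h and DMSO 48 h libraries.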
